A study of Homo sapiens with 3 samples.

Results

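The genes described here are those for the proteins of the cytosolic ribosome, as named on an Agilent human expression array. A probe (an oligonucleotide of 60 bases printed as a spot) belonged to the group when its gene name was RPL or RPS followed by a number, with or without a final A, or was RPLP0, RPLP1, RPLP2 or RPSA. The rule took 188 of the 41000 probes and 74 of the 30968 gene names on the array: 42 proteins of the large subunit, 29 of the small subunit and the 3 P-stalk proteins of the large subunit. No probe was named RPSA, the laminin receptor that is also a small subunit protein. The rule uses gene names and no signal, and the group was proposed with earlier results of these data known.

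The cells were 1205Lu, a human melanoma line that was derived from WM793 cells after lung metastasis of a xenograft. The original monolayer (OM) had 14 days in RPMI-1640 with 10% FCS. Melanoma bodies (MB), which are three-dimensional aggregates, had 14 days in hESC medium, made of DMEM F-12 with 20% KO serum replacement. The new monolayer (NM) was seeded from bodies: after 14 days in hESC medium these had 10 days in RPMI-1640 with 10% FCS, and residual bodies were removed before RNA was prepared. OM and MB thus differ in medium, serum and growth form at once, and the effects of these cannot be told apart. Total RNA of each population was labelled with Cy3 and hybridised to 1 array, and the 3 arrays share 1 slide. With 1 array per population there is no replicate culture, and no test was possible. The number of arrays thus sets the precision. The spread between spots of 1 probe within an array gives a technical SD of 0.07 for the log2 ratio of a single spot. This is a 1.05-fold difference (197 probes printed in 10 spots). It leaves out variation between cultures, in labelling and between arrays.

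Ribosomal proteins assemble with ribosomal RNA in the nucleolus into a small subunit, which reads the mRNA, and a large subunit, which joins amino acids. Most of their mRNAs belong to the 5′ TOP class, which begin with a C followed by a run of pyrimidines, and the translation of which depends on the mTOR kinase and the RNA-binding protein LARP1. They are made in near equal numbers and are among the most abundant mRNAs of a growing cell.

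Sequences around the annotated transcript starts are shown for genes at the ends of the ranges reported below and for RPLP0 and RPS6, which represent the stalk and the S6 kinase substrate. Each run holds the 10 bases before the start and the first 20 bases of the transcript, from RefSeq on GRCh38.p14, and capitals mark an uninterrupted pyrimidine run of at least 5 bases that begins with C at the start. Sequences without capitals hold no such run at the annotated start, though those of RPS26 and RPL10A hold a pyrimidine run further on.
RPS21: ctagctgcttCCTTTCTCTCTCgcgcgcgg
RPL36: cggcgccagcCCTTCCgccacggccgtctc
RPL26: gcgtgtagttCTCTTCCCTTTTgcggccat
RPL39: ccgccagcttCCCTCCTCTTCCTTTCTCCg
RPS24: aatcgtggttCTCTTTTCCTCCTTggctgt
RPS27: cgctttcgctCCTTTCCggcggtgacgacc
RPLP0: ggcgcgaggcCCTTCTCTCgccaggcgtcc
RPS6: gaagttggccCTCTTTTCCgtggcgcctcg
RPS3: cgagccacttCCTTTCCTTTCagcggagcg
RPS26: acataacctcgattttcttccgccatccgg
RPL10A: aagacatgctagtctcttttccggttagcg
These windows lie at chr20:62387093-62387122 (plus strand) for RPS21, chr19:5690285-5690314 (plus) for RPL36, chr17:8383174-8383203 (minus) for RPL26, chrX:119791611-119791640 (minus) for RPL39 and chr10:78033853-78033882 (plus) for RPS24. Those of the other genes lie at chr1:153990752-153990781 (plus) for RPS27, chr12:120201092-120201121 (minus) for RPLP0, chr9:19380217-19380246 (minus) for RPS6, chr11:75399508-75399537 (plus) for RPS3, chr12:56041908-56041937 (plus) for RPS26 and chr6:35468391-35468420 (plus) for RPL10A. Of the 59 ribosomal protein genes with a start in the RefSeq table, 44 (74.6%) had such a run at a listed start, against 1404 of all 27305 genes in the table (5.14%). The longest run was the 19 bases of RPL39, and the median run among starts that had one was 8 bases.

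Ribosomal protein mRNAs were lower in melanoma bodies and higher in the new monolayer, each against the original monolayer. On scaled signals, the 73 genes with a value had a median log2 ratio, MB over OM, of -0.51, a 1.42-fold lower level, with a range of -0.83 to -0.20, so that all 73 were lower in MB. The median of all 22060 genes with a value was -0.11, and 58.0% of them were lower in MB. In NM the median was 0.44 above OM, or 1.36-fold, with a range of -0.22 to 0.87, and 71 of 73 genes were higher. For all 20976 genes in that comparison the median was -0.02, and 48.6% of them were higher in NM. Both comparisons use the OM array, and in RNA from whole cultures fewer cells with a transcript and less of it per cell cannot be told apart. Between MB and NM, a ratio fixed by the first 2, the ribosomal protein median was -0.92 (1.89-fold lower in MB) and that of all 20880 genes was -0.08.

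The genes lay close together. Their SD was 0.15 in MB over OM and 0.18 in NM over OM, against 0.71 and 0.68 for all genes, which include dim genes and bounds. For the other genes of like brightness, described below, the SD was 0.44 and 0.34. Translation factors and other 5′ TOP genes, also described below, had SDs of 0.18 and 0.20, close to those of the ribosomal proteins. In MB, 24 of 73 genes lay below OM by at least 1.5-fold (32.9%, with 18.1% of all genes past that fold) and 0 were at least 1.5-fold higher (11.3% of all genes). In NM, 13 of 73 were at least 1.5-fold higher than in OM (17.8%, with 11.3% of all genes) and 0 were lower by that fold (14.9% of all genes). Between MB and NM, 68 of 73 were at least 1.5-fold lower in MB (93.2%, with 24.3% of all genes) and 0 were higher (20.4% of all genes). No ribosomal protein gene differed 5-fold or more in any comparison. Few of all genes did either: 1.35% between MB and OM, 1.15% between NM and OM and 3.23% between MB and NM. For a group of 73 genes, a count of 0 is near these shares.

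**Figure D1:**
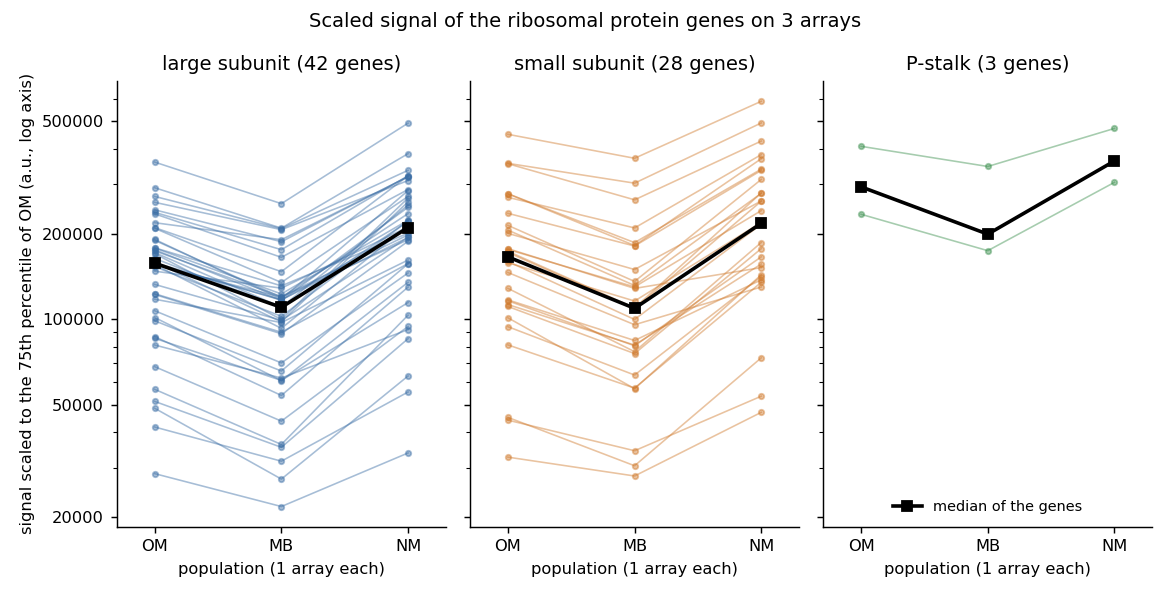
Each thin line is 1 ribosomal protein gene and joins its signal in OM, MB and NM (1 array each, a.u., log axis), scaled to the 75th percentile of OM, and the black squares are the medians of the genes. All 73 lines are lower at MB than at OM, and 71 of them are higher at NM than at OM.

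The subunits had similar medians. The log2 ratio of MB to OM had a median of -0.51 for the 42 large subunit genes, -0.52 for the 28 small subunit genes with a value and -0.43 for the 3 stalk genes. In NM over OM the medians were 0.43, 0.47 and 0.30 in the same order. Past 1.5-fold below OM in MB were 15 of 42 large subunit genes (35.7%) and 9 of 28 small subunit genes (32.1%). Among all genes the share was 18.1%.

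Within the large subunit, RPL36 and RPL26 were farthest below OM in MB. RPL36 (probe at chr19:5642418-5642555, hg17, the build of the deposited files, used for all probe positions) gave unscaled signals of 48574 a.u. in OM, 30444 in MB and 58359 in NM, and its log2 ratio was -0.83 for MB and 0.38 for NM over OM. Below, unscaled signals are given in the order OM, MB and NM, and log2 ratios, from scaled signals, in the order MB over OM and NM over OM, unless stated. RPL26 (chr17:8223905-8223964), which sits at the exit of the peptide tunnel, gave 170652, 111422 and 247853 a.u., with log2 ratios of -0.77 and 0.65. RPL9 (chr4:39280598-39280657) followed with 156072, 103656 and 198034 a.u. and ratios of -0.75 and 0.46. All 3 were lowest in MB and highest in NM.

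At the other end in MB over OM were RPL23A and RPL10A. RPL23A (chr17:24074765-24075050), part of the docking site for the signal recognition particle, gave 148016 a.u. in OM, 143700 in MB and 195957 in NM. RPL10A (chr6:35546407-35546466), the protein of the mobile stalk beside the exit site for tRNA, gave 219490, 213062 and 294522 a.u. Both had a log2 ratio of -0.20 for MB over OM, nearly 3 technical SDs, and lay above OM in NM by 0.52 and 0.54. They were the nearest to OM in MB, while in NM both lay above the median of the group.

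The largest difference of NM from OM was in the large subunit. RPL39 (chrX:118702420-118702479), a small protein that lines the peptide tunnel, gave 56660 a.u. in OM, 40333 in MB and 95655 in NM, with log2 ratios of -0.65 and 0.87. Its other probe gave 51179, 37756 and 95727 a.u., with ratios of -0.60 and 1.02. RPL36A (chrX:100456584-100456913) gave 159210, 109291 and 240380 a.u., with a ratio for NM over OM of 0.71. The smallest in this subunit were RPL4 (chr15:64579516-64579691), another tunnel protein, at 178992, 146425 and 186259 a.u. and RPL6 (chr12:111307394-111308802) at 81223, 69206 and 85124 a.u., with ratios of 0.17 and 0.18.

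Several large subunit proteins have known roles outside protein synthesis or late in assembly. RPL5 and RPL11, which bind MDM2 when ribosome assembly is disturbed and so stabilise p53, gave log2 ratios for MB over OM of -0.44 and -0.67. The signals were 158715, 130327 and 194151 a.u. for RPL5 on OM, MB and NM, and 190180, 133400 and 218420 a.u. for RPL11. MB was lowest and NM highest for both. RPL10, which joins in the last steps of large subunit assembly, gave 157245, 130778 and 179926 a.u. RPL3, which reaches towards the site of peptide bond formation, gave 291606, 234035 and 355572 a.u., and RPL41, the smallest protein of the ribosome, gave 155714, 133589 and 176655 a.u. Their ratios for MB over OM were -0.42, -0.47 and -0.38 and for NM over OM 0.31, 0.40 and 0.30.

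In the small subunit, RPS21 (chr20:60396336-60396789) was farthest below OM in MB, with 101338 a.u. in OM, 63492 in MB and 132830 in NM and log2 ratios of -0.83 and 0.50. RPS24 (chr10:79465377-79465436), mutated in some cases of Diamond-Blackfan anaemia, had the largest difference of NM from OM in this subunit, at 81299, 63767 and 124954 a.u. and a ratio of 0.73. RPS27 (chr1:150777126-150777185), a zinc finger protein, gave 355609, 337371 and 456342 a.u. It was among the small subunit genes nearest to OM in MB, with a ratio of -0.23.

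RPS6, the substrate of the S6 kinases, gave 269821 a.u. in OM, 234428 in MB and 352764 in NM, with log2 ratios of -0.36 for MB and 0.50 for NM over OM. RPS19, the gene most often mutated in Diamond-Blackfan anaemia, gave 160164, 111401 and 200400 a.u. and ratios of -0.68 and 0.44. RPS27A, which is made as a fusion with ubiquitin, gave 206659, 146876 and 257630 a.u. and ratios of -0.65 and 0.43. In MB, RPS19 and RPS27A were past 1.5-fold and RPS6 was not.

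RPS26 and RPS3 were the only 2 of the 73 genes lower in NM than in OM. RPS26 (chr12:54724190-54724249), which contacts mRNA at the exit channel, gave 177830 a.u. in OM, 143396 in MB and 140848 in NM. Its log2 ratio was -0.47 for MB and -0.22 for NM over OM. RPS3 (chr11:74792753-74792812), which lies at the entry of the mRNA channel and also has a role in DNA repair, gave 146450, 106749 and 120292 a.u. and ratios of -0.61 and -0.17. In these probes and the main scaling, NM differed from OM by more than 2 technical SDs for both genes. That SD holds spread within arrays only. The other probes of these genes ran the same way: the other RPS3 probe gave 26840, 16645 and 22567 a.u. with ratios of -0.85 and -0.14. A pair of further RPS26 probes, which overlap each other, gave 20355, 18358 and 17652 a.u. and 17131, 15176 and 14575 a.u., with NM over OM at -0.09 and -0.12. RPS3 has a pyrimidine run at its annotated start, and RPS26 has none there, though its window shown above holds one further on.

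The stalk proteins recruit the GTPases that drive elongation. RPLP0, the base of the stalk, gave 293724 a.u. in OM, 222901 in MB and 335108 in NM, with log2 ratios of -0.55 and 0.30. It alone among the ribosomal proteins has a probe printed in 10 spots, of which 9 were usable on each array. That probe averaged 160075 ± 3380 a.u. in OM, 112747 ± 2504 in MB and 191849 ± 4967 in NM (SD of its 9 spots). They ranged from 157316 to 167456 a.u. in OM, from 109143 to 116812 in MB and from 185476 to 199117 in NM, so the spots of the 3 arrays did not overlap before scaling. RPLP1 gave 408339, 386347 and 436482 a.u. (ratios -0.24 and 0.21), and RPLP2 gave 235028, 194871 and 281610 a.u. (ratios -0.43 and 0.37).

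Bright spots set a limit for RPS2. The gene (chr16:1952082-1952138) was saturated on all 3 arrays in the probe that represents it and has no ratio. Of its other probes, 1 was neither dim nor saturated and gave 82439, 48676 and 84295 a.u., with log2 ratios of -0.92 for MB and 0.15 for NM over OM.

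**Figure D2:**
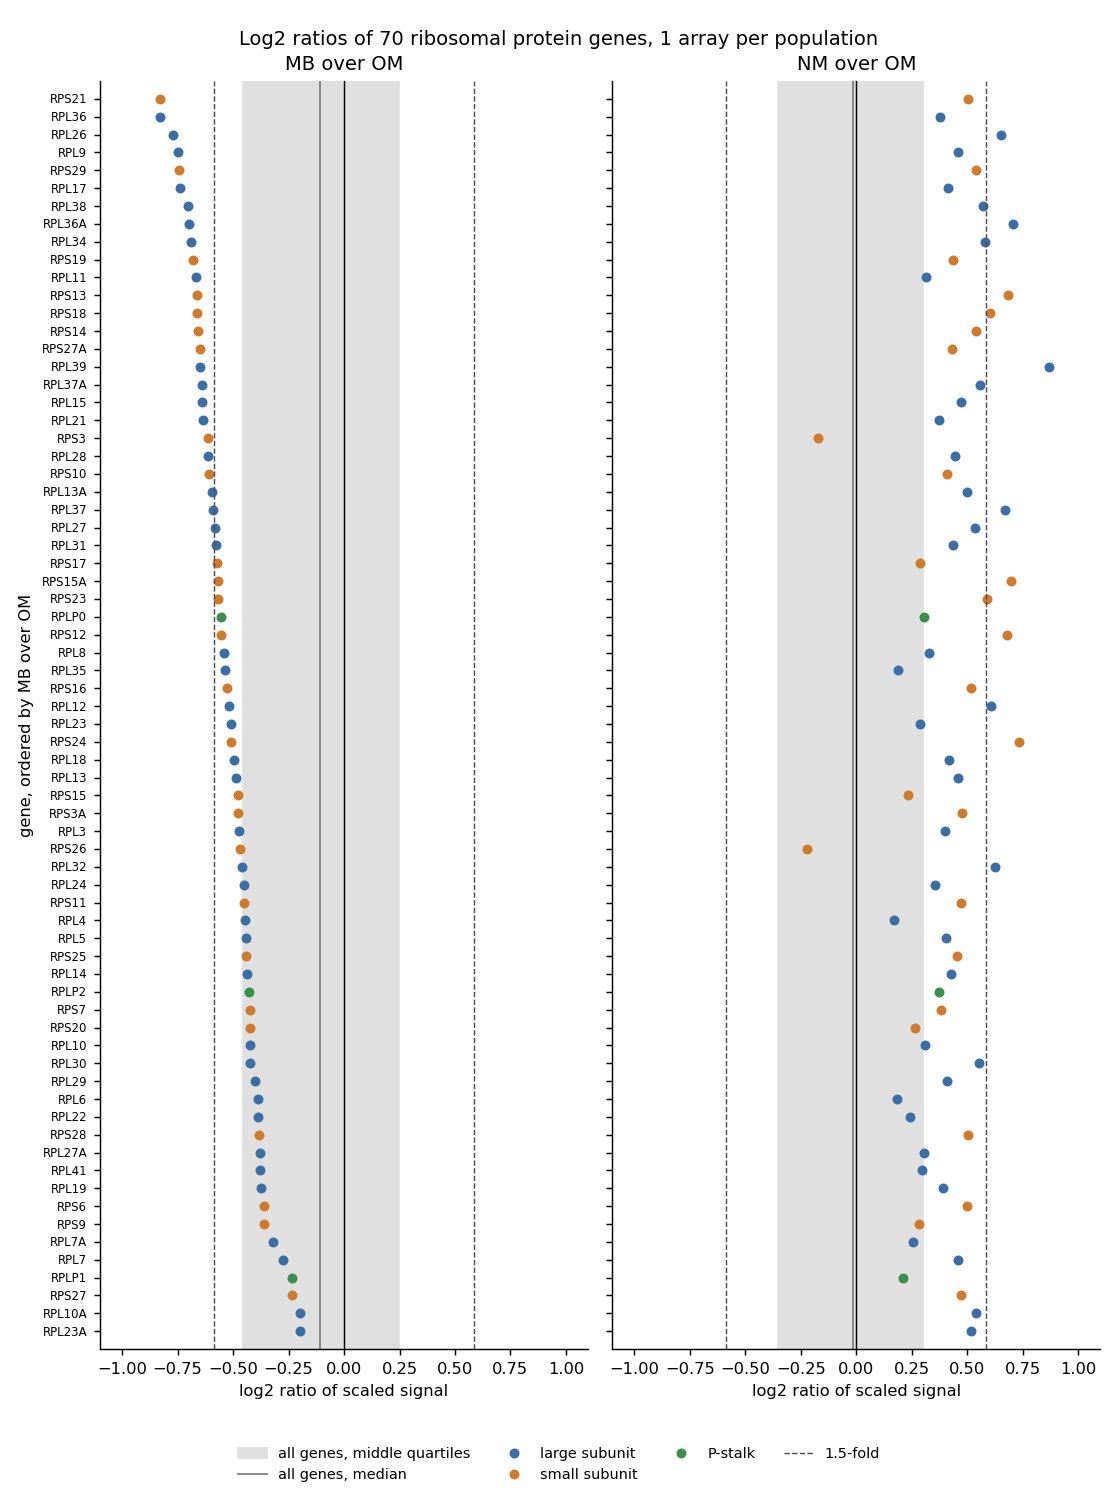
Points show the log2 ratio of scaled signal of 70 of the 73 ribosomal protein genes with a ratio, in MB over OM (left) and NM over OM (right), with genes in the same order in both panels and colours for the subunit. The grey band and line give the middle quartiles and median of all genes, dashed lines mark 1.5-fold, and all points lie below 0 on the left while RPS26 and RPS3 alone lie below 0 on the right.

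How the arrays were put on 1 scale sets the size of these differences. The 75th percentile of signal, by which each array was divided, was 1.11 times that of OM on MB and 0.924 times on NM. Before any scaling the ribosomal protein median was -0.35 for MB over OM and 0.33 for NM over OM. Division by 3 housekeeping genes, GAPDH, ACTB and HSP90AA1, gave -0.32 and 0.52, and scaling to 7 spike-in probes gave -0.63 and 0.38. In each of these, as in the main scaling, all 73 genes were lower in MB than OM and 71 of 73 were higher in NM than OM. Spike-in scaling moved the median of all genes to -0.23 in MB over OM, and the ribosomal proteins lay at -0.40 relative to it. A factor that multiplies a whole array moves the ribosomal proteins and all genes alike, so this distance is all but fixed by construction under such scalings and is no check of the values.

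Quantile normalization, which gives every array the same distribution of signals, is not bound in this way and gave smaller differences. The median log2 ratio of MB to OM became -0.18 with 67 of 73 genes lower and 5 higher, 0.20 for NM over OM with 64 higher and 7 lower, and -0.37 for MB over NM with 69 lower and 4 higher. RPL23A, RPL10A, RPL7 and RPL41 were among the 5 higher in MB than OM under it, at 0.20 or less. Counts past 1.5-fold fell to 1 gene lower in MB than OM, 1 higher in NM than OM and 20 lower in MB than NM. The share of all genes past that fold was not computed under quantile normalization, so these counts cannot be set against it.

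**Figure D3:**
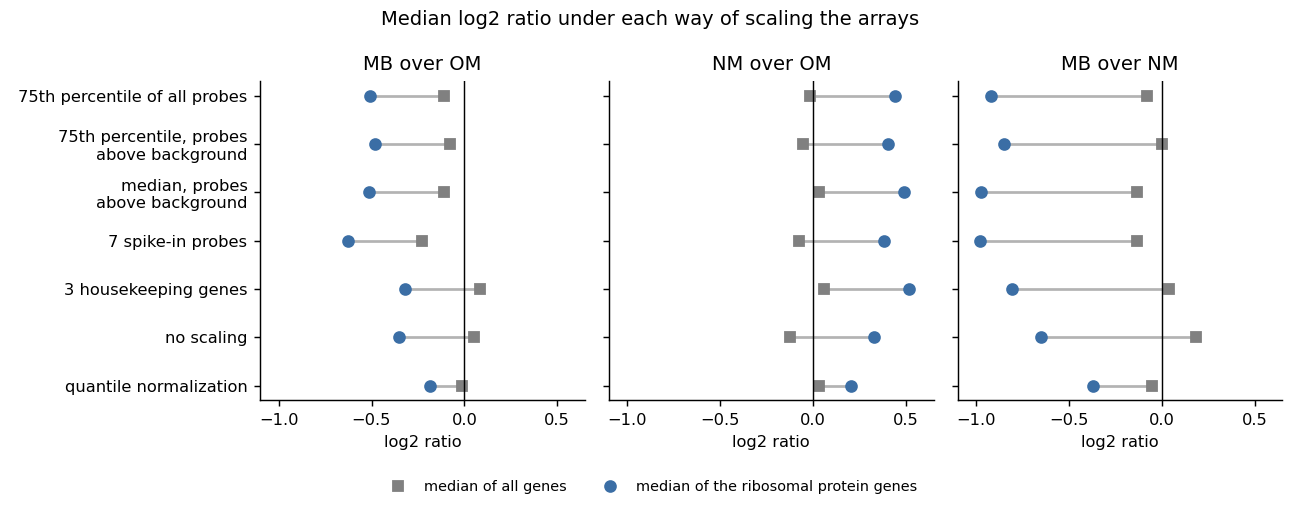
Circles give the median log2 ratio of the ribosomal protein genes and squares that of all genes, under 7 ways of putting the 3 arrays on 1 scale, for MB over OM, NM over OM and MB over NM. The circle keeps its side of 0 in every row, and the distance from square to circle is shortest under quantile normalization (-0.17 for MB over OM).

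Ribosomal protein probes are among the brightest on the array, so other bright genes were set beside them. Their signals ranged from 28552 to 607944 a.u. on OM, and their lower quartile was above 99.2% of all genes. The 137 other RefSeq genes at least as bright as that quartile had medians of -0.28 in MB over OM, 0.15 in NM over OM and -0.46 in MB over NM (log2). These have the sign of the ribosomal protein medians and are smaller. Of these genes, 117 of 136 (86.0%) were lower in MB than OM and 100 of 137 (73.0%) were higher in NM than OM. Past 1.5-fold, 17 of 136 of these genes lay below OM in MB and 6 of 137 above OM in NM. Only genes taken by the rule were left out of this bright set, so other ribosome components and 5′ TOP genes of such brightness could stay in it. The part that brightness has in the ribosomal protein values was not tested. As a share of the summed signal of all genes, which needs no scaling, ribosomal proteins made up 7.59% in OM, 6.41% in MB and 9.03% in NM.

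Most ribosomal protein genes have several probes, and these form repeated measurements on the same RNA. RPL21, with 14 probes placed on chromosomes 13 and 10, gave log2 ratios for MB over OM of -0.85 to -0.59 and for NM over OM of 0.27 to 0.46. The 6 probes of RPL34 ranged from -0.85 to -0.66 and from 0.53 to 0.90, and the 6 of RPS10 from -0.78 to -0.61 and from 0.29 to 0.41. Every probe of these 3 genes was lower in MB and higher in NM. Ribosomal protein genes have many near-identical processed copies in the genome, so a probe may read more than 1 locus. Over all probes of the group, 181 of 185 with a value were lower in MB than OM and 171 of 184 were higher in NM than OM.

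All 169 probes with a value above 10000 a.u. were lower in MB than OM, so the few that ran the other way were dimmer. In NM over OM, 5 of 168 probes of that brightness ran the other way, and these were probes of RPS26 and RPS3. RPL28, a large subunit protein that budding yeast lacks, gave 107318 a.u. in OM, 78262 in MB and 134825 in NM with its bright probe, and 394, 681 and 326 a.u. with the other, which maps to chr19:60594968-60595025, downstream of the bright probe at chr19:60591144-60591203. The log2 ratios for MB over OM were -0.61 and 0.63. A dim probe of RPL23A gave 1567, 2291 and 1389 a.u. with a ratio of 0.39, against -0.20 to -0.26 for its 3 brighter probes. For RPL23, which can also bind MDM2, the bright probe gave 235911, 184610 and 265695 a.u., and a dim one from another transcript record gave 114 a.u. on OM and 140 on MB and was not well above background on NM.

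Probes also differed by over 1.0 in log2 ratio within RPL10, RPL31 and RPS2. RPL31 gave 164123, 122786 and 205286 a.u. with its bright probe and 940, 583 and 583 a.u. with a probe from another transcript record, and the log2 ratios for NM over OM were 0.44 and -0.58. In RPL10, 4 probes gave ratios for NM over OM of 0.18 to 0.41, a dim one, at 50.5 a.u. on OM and not well above background on NM, gave at most -0.68, and the remaining one stayed at background on all 3 arrays. The dim probes of RPS2, on the opposite strand or from other records, gave ratios for MB over OM of -0.34 to 0.10.

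In the 51 genes with at least 2 usable probes, the dimmer one was lower relative to the brighter one in MB over OM in 37 (72.5%), with a median difference of -0.08. The corresponding share was 48.7% among 3952 other genes and 54.0% among 87 other genes of like brightness. The median log2 ratio was -0.58 over the dimmest probes and -0.52 over the brightest. Taken by position, the probe nearest the 5′ end was lower than the one nearest the 3′ end in 37 of 51 as well (median difference -0.08). The share by position was 53.9% among the other genes and 56.3% among those of like brightness. The 3′ probe was the brighter one in 38 of the 51 genes, so brightness and position cannot be told apart. In NM over OM the dimmer probe was lower in 22 of 51 (43.1%), against 61.8% of the other genes and 73.6% of those of like brightness, so that the shares lay in the opposite order. Across genes, which are not independent replicates and share 2 arrays, the log2 ratio of MB over OM had a Pearson correlation of 0.20 and a Spearman correlation of 0.23 with mean log2 signal, and that of NM over OM had -0.18 and -0.22 (73 genes).

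**Figure D4:**
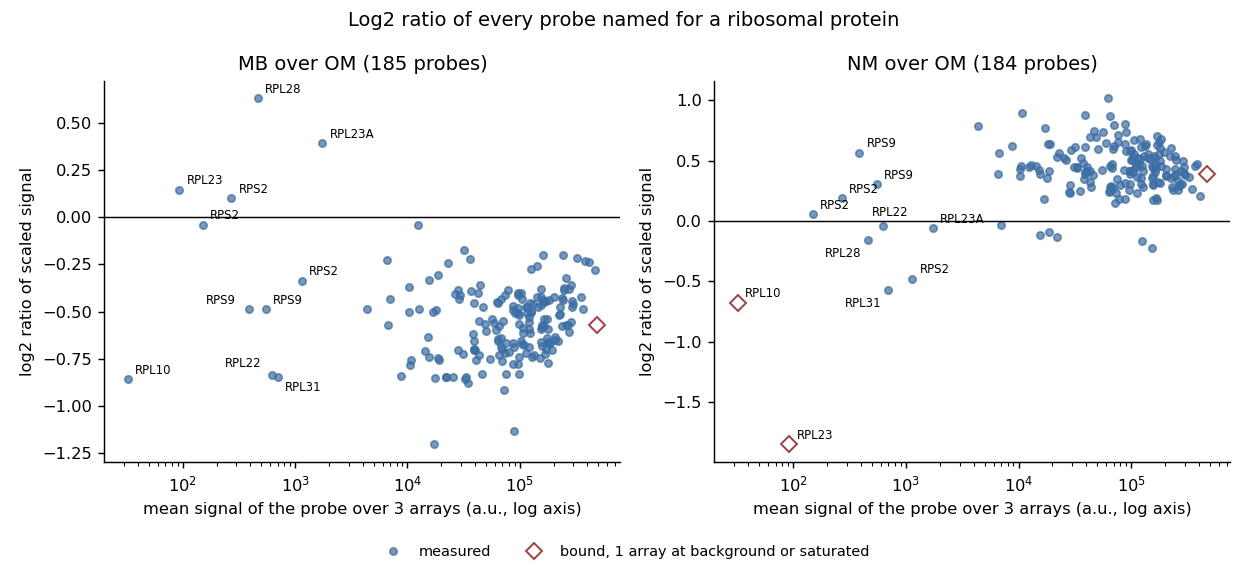
Each point is 1 probe named for a ribosomal protein, placed by its mean signal over the 3 arrays (a.u., log axis) and its log2 ratio in MB over OM (left) or NM over OM (right), with gene names for probes under 3000 a.u. and diamonds for bounds. The probes above 10000 a.u. all lie below 0 in MB over OM, and in NM over OM those below 0 at that brightness are probes of RPS26 and RPS3.

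Genes with and without a pyrimidine run at the start overlapped in these ratios. The 44 genes with a run had medians of -0.55 (MB over OM) and 0.44 (NM over OM), and the 15 genes without one at any listed start had -0.47 and 0.41. Their ranges overlapped, from -0.83 to -0.23 and from -0.75 to -0.20 in MB over OM. For a further 15 genes the start was not analysed here. The annotated starts may differ from those used in these cells. Genes without a run at a listed start may thus still have a 5′ TOP mRNA.

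Other parts of the ribosome and its supply were compared by lists. The 12 paralogs and other ribosome components, which include RPS4X, FAU (a ubiquitin-like fusion with RPS30) and GNB2L1 (the scaffold RACK1), had a median of -0.49 in MB over OM and 0.30 in NM over OM, or -0.22 and 0.15 under quantile normalization. None was at least 1.5-fold higher in MB and 1 (8.33%) was lower by that fold, against 11.3% and 18.1% of all genes. RPL36AL, at 95778, 67770 and 104295 a.u., and RPL39L, at 17046, 12967 and 20088 a.u., were lowest, with log2 ratios of -0.66 and -0.55. RPL22L1 gave 161064, 141397 and 240738 a.u. (-0.34), and RPL7L1, a factor of ribosome assembly, gave 7464, 8652 and 6408 a.u. (0.06). All 11 of the list other than RPL7L1 were below OM in MB and above OM in NM.

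The 20 translation factors and other genes known for a 5′ TOP mRNA had a median of -0.45 in MB over OM (log2), and all 20 were lower in MB. Only 2 of the 20 (10.0%) were lower by at least 1.5-fold, a smaller share than the 18.1% of all genes. In NM over OM the median was 0.24 and 19 of 20 were higher, none by 1.5-fold (11.3% of all genes). Under quantile normalization the medians were -0.12 and 0.09. EIF2S3, a subunit of the initiation factor that brings the first tRNA, gave 1667, 1174 and 1167 a.u. and the lowest ratio in MB, -0.66, and it was also the gene below OM in NM (-0.40). PABPC1, the poly(A)-binding protein, gave 169231, 123905 and 156654 a.u. (-0.61). HNRPA1, a splicing factor, and NAP1L1, a histone chaperone, were nearest to OM in MB, with 93682, 103553 and 107970 a.u. (-0.01) and 24128, 26212 and 29380 a.u. (-0.04). Of these genes 14 have a start in the RefSeq table and 12 of them have a run.

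Mitochondrial ribosomal proteins, which are encoded by another set of nuclear genes, lay nearer to all genes. The median of the 76 genes was -0.23 in MB over OM and 0.03 in NM over OM, with 5 (6.58%) at least 1.5-fold lower and 0 higher in MB, and 2 (2.63%) higher and 2 lower in NM, each a smaller share than among all genes. MRPL33 gave 12101 a.u. in OM, 6503 in MB and 8815 in NM (-1.05 in MB over OM) and MRPS16 gave 6623, 4543 and 6998 a.u. (-0.70). MRPS27 gave 4255, 6547 and 4179 a.u. (0.47), and MRPS18A gave 5794, 8159 and 5396 a.u. (0.34). Their median in NM over OM changed sign with the scaling, from -0.09 to 0.10.

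Genes that make and assemble ribosomes lay on the other side of the median of all genes. The 43 ribosome biogenesis genes had medians of 0.06 in MB over OM, -0.27 in NM over OM and 0.34 in MB over NM (log2). The first of these was -0.05 under spike-in scaling and otherwise above 0, and it lay 0.17 above the median of all genes, or 0.15 under quantile normalization. In MB over OM, 2 genes (4.65%) were at least 1.5-fold higher and 1 (2.33%) lower, against 11.3% and 18.1% of all genes. In NM over OM, 0 were higher and 10 (23.3%) lower, against 11.3% and 14.9% of all genes. POLR1B, the second largest subunit of RNA polymerase I, gave 1018 a.u. in OM, 2119 in MB and 935 in NM (0.90 in MB over OM). NOL1, the rRNA methyltransferase also called NOP2, gave 4943, 8653 and 2710 a.u. (0.65). EBNA1BP2 gave 60922, 39074 and 46276 a.u. (-0.80), and BXDC1 gave 8349, 6495 and 9489 a.u. (-0.52).

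**Figure D5:**
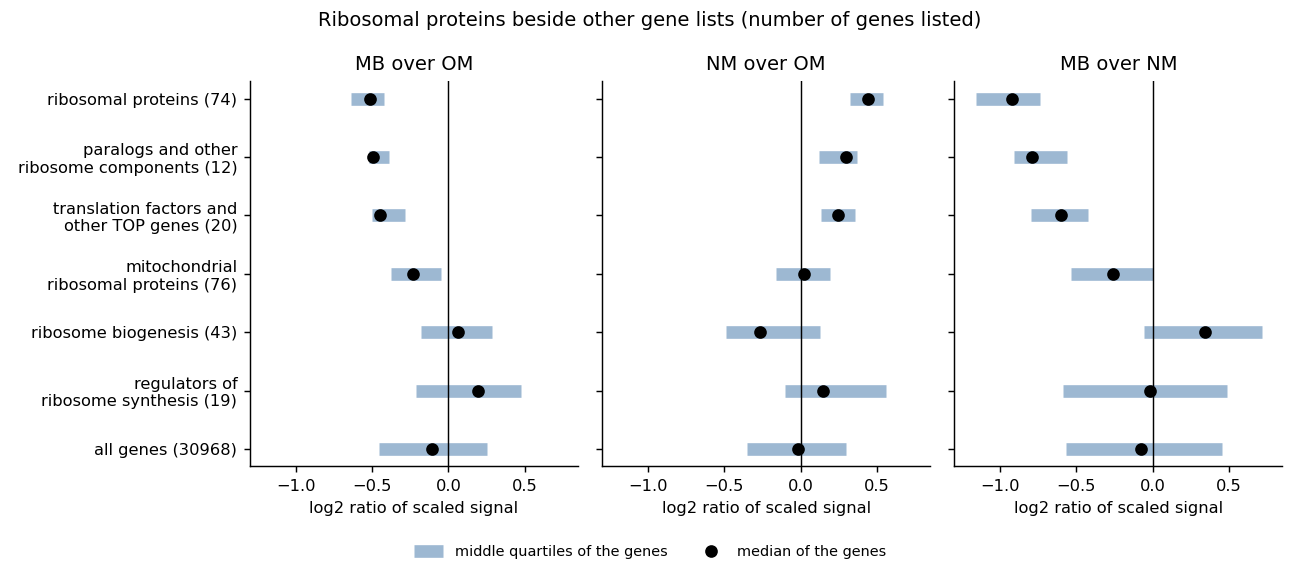
Dots give the median log2 ratio and bars the middle quartiles of the genes of each list, in MB over OM, NM over OM and MB over NM, with the number of genes listed in brackets. Ribosomal proteins, their paralogs and the TOP genes lie below 0 in MB over OM and above 0 in NM over OM (medians of the ribosomal proteins -0.51 and 0.44), and ribosome biogenesis genes lie at 0.06 and -0.27.

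Among 19 regulators of ribosome synthesis the median was 0.19 in MB over OM and 0.15 in NM over OM, and single genes differed more than any ribosomal protein. DDIT4, an inhibitor of mTOR, gave 119034 a.u. in OM, 20021 in MB and 165545 in NM, and SESN2, another one, gave 3809, 950 and 8284 a.u., with log2 ratios against OM of -2.73 and -2.16 in MB. TSC1, a subunit of the complex that restrains mTOR, gave 1370, 2723 and 1403 a.u. (0.83). MYC, which drives transcription of ribosome genes, gave 5236, 9538 and 7462 a.u., with ratios of 0.71 and 0.62. Past 1.5-fold, 4 genes of this list (21.1%) lay above and 3 (15.8%) below OM in MB, against 11.3% and 18.1% of all genes. In NM, 5 (26.3%) lay above and 0 below OM, against 11.3% and 14.9%.

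The melanoma label was checked against 8 markers of the melanocyte lineage. MITF, SOX10, SILV, DCT and S100B were well above background on all 3 arrays, MLANA on OM and MB, and the pigment enzymes TYR and TYRP1 on none. Of the 6 markers with a ratio of MB to OM, 4 were higher and 2 lower in MB (median log2 ratio 0.31). Of the 5 with a ratio of NM to OM, 3 were higher and 2 lower in NM (median 0.04). The 2 lower in NM were SOX10, at 6254, 9382 and 4887 a.u., and S100B, at 25155, 43760 and 13307 a.u. Of 8 markers of fibroblasts, keratinocytes and leukocytes, LUM, COL3A1, KRT5 and PTPRC stayed at background on all 3 arrays and DCN was well above it on MB alone (26.8 a.u.). PDGFRA (5519, 9882 and 3174 a.u.), KRT14 (213, 373 and 118 a.u.) and CD3E (110, 84.8 and 87.4 a.u.) were well above background on all 3. The summed signal of the 8 was 5874 a.u. for OM, 10393 for MB and 3428 for NM, lowest in NM and highest in MB. Most of this sum on each array was the signal of PDGFRA alone. The part of the summed signal in the ribosomal protein values was not tested.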

How the data were processed

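Total RNA of OM, MB and NM was hybridised to 1 array each of a 4 × 44K Agilent design on 1 slide. The authors deposited the intensity of each spot on a linear scale (a.u.) from Agilent Feature Extraction (9.5.3.1 per the file headers), with local background subtracted and no scaling between arrays. The deposited series table holds the same values (130128 of 130128 within 0.1%). Positions in the deposited files are in hg17, and exon or UTR annotation was not used here.

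Control spots were dropped, as were spots that the software marked as outliers (77 for OM, 79 for MB and 81 for NM). The remaining spots of a probe were averaged, and signals were divided by the 75th percentile of their array. Well above background were 28746 probes on OM, 29125 on MB and 26516 on NM. A gene took its probe with the highest mean log2 signal. All genes are those well above background on at least 1 array of a comparison. Where 1 array was at background or saturated, the ratio is a bound, and where both were, there is none. Genes were called at 1.5-fold, and 5-fold is the threshold of the study.

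The group and the lists were chosen with earlier results of these data known. All ribosomal protein genes were counted. Named with signals are the 4 highest and 4 lowest in MB over OM and in NM over OM, those farthest from the median, genes with a probe in 10 spots, with probes differing by over 1.0, or saturated, 14 genes by role, and the 2 highest and 2 lowest of each list in MB over OM. PDGFRA, KRT14, CD3E, DCN, SOX10 and S100B are given as markers. No probe matched GTF3A or RPTOR. A few genes that this rule takes are counted but not reported here by name.

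Alternatives were quantile normalization, housekeeping, spike-in, median and other percentile scaling, no scaling, normexp correction (limma 3.58.1, R 4.3.3, offset 50), no background subtraction, other rules for outliers, saturation, dim probes and gene names, and the deposited table. Promoters came from RefSeq (GRCh38.p14). Scripts ran in Python 3.11.15 with scipy 1.17.1, pandas 2.3.3 and numpy 2.4.6, and matplotlib 3.10.9 drew the plots. The calls were tested on simulated data before use.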

Additional observations from a re-analysis of the deposited data

How the results depend on the processing

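No paired analysis was possible because each population is a single array, and for the same reason no array could be left out. The direction of the ribosomal protein medians held under all 15 alternatives, between -0.63 and -0.18 for MB over OM, 0.20 and 0.52 for NM over OM and -1.03 and -0.37 for MB over NM. Quantile normalization gave medians of -0.18, 0.20 and -0.37, medians relative to all genes of -0.17, 0.17 and -0.32, and 1, 1 and 20 genes past 1.5-fold (lower in MB than OM, higher in NM than OM, lower in MB than NM). Housekeeping scaling gave -0.32, 0.52 and -0.81, with 2 genes past 1.5-fold in MB over OM and 24 in NM over OM. Without scaling the medians were -0.35, 0.33 and -0.65, with 5 and 4 genes. Spike-in scaling gave -0.63 and 43 genes in MB over OM, and scaling to the median 21 genes in NM over OM. The dimmest probe of each gene gave 1 gene at least 1.5-fold higher in MB than OM, 1 higher in MB than NM, 20 higher in NM than OM, and a median of -1.03 for MB over NM, or -0.94 relative to all genes. The cause of these differences was not tested. The share of all genes past 1.5-fold was computed for the main scaling only, so counts under the alternatives have none beside them. Single genes that changed sign were RPL4 in MB over NM under quantile normalization (0.012), RPL23 in MB over NM (0.17) and RPL28 in MB over OM (0.0094) with the mean over all probes, and, with the dimmest probe, RPL23A in MB over NM (0.45) and RPL28 in MB over OM (0.63) and MB over NM (0.79). RPS26 and RPS3 were below OM in NM under every alternative, at -0.47 to -0.12 and -0.38 to -0.09. In MB over NM, RPS26 was at 0.37 under quantile normalization and 0.03 without scaling. Of 3282 values of single genes under the alternatives, 2389 moved by less than the technical SD of the log2 ratio. This total depends on which alternatives are counted and is no measure of stability. All 219 values moved by at least that SD under housekeeping scaling and without scaling. Under quantile normalization 217 did, and 1 more changed sign. With the deposited table, which holds the same signals, with other gene names or with outlier spots kept, all 219 stayed within it. All 74 genes were well above background on the 3 arrays in the probe that represents them. Saturation limits RPS2 and another gene, which had no ratio when saturated spots were left out.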
